A study of Mus musculus with 9 samples.

Results

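Mitochondria join and divide, and the genes of that machinery were followed here in mouse gastrocnemius, the large calf muscle. The set was chosen by name and holds 10 genes of the 55416 in the expression table: Mfn1, Mfn2, Opa1, Oma1, Yme1l1, Dnm1l, Mff, Fis1, Mief1 and Mief2. Each matched 1 identifier and passed the filter on low counts, as did 13944 genes in all. Left gastrocnemius RNA was sequenced from 3 groups of 3 libraries: sedentary mice (SED), mice trained by treadmill running (AET), and mice trained likewise with metformin in the drinking water (AET_MET). Training took 60 minutes a day on 5 days a week for 8 weeks, while metformin, a drug that lowers blood glucose, was given at 2 mg/mL. The sources used here give neither strain, sex and age nor the time between the last run and collection. No group given metformin without training was analysed here, so drug and drug-with-training effects cannot be told apart. The labels number the samples without tying them to separate mice, so the p-values rest on a between-sample spread that may be technical.

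Mitofusins 1 and 2, encoded by Mfn1 and Mfn2, are GTPases that join outer membranes, and OPA1 joins inner membranes. The proteases OMA1 and YME1L cut OPA1, and the balance of its long and short forms sets whether inner membranes fuse. For division, the GTPase DRP1, encoded by Dnm1l, is brought from the cytosol to the outer membrane by receptors: MFF, FIS1, and the related MiD51 (Mief1) and MiD49 (Mief2). In muscle fibers these proteins shape a reticulum between the myofibrils, and much of their control acts on the proteins rather than the transcripts.

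Totals per library ran from 15434424 to 25355877 expected counts, the lowest in AET_MET replicate 1, and mitochondrial transcripts took 11.2% to 15.6% of them. Fast fiber genes were abundant in every library, all 8 of them measured, with a summed level of 116076 to 136353 CPM (a gene's share of its library, scaled by the trimmed mean of M-values, TMM). The 8 slow fiber genes varied far more, summing to 837 to 1013 CPM for SED, from 339 to 1280.2 for AET and from 89.1 to 724 for AET_MET, with AET_MET replicate 1 the lowest. In bulk tissue, fewer cells of a type and less RNA per cell cannot be told apart.

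The transcript levels of this machinery differed little between the groups. By edgeR's quasi-likelihood test at a Benjamini-Hochberg adjusted p under 0.05, only Mief1 and Yme1l1 fell in AET against SED. At that threshold no gene of the 10 passed in AET_MET against SED, and only Mief1 was higher in AET_MET than in AET. A gene that did not pass is not thereby shown to be unchanged. The largest difference of any member in any comparison was 1.28-fold. Sequences upstream of the transcription start are shown for these 2 genes, for Mief2 as the paralog of Mief1, and for Opa1, from the RefSeq promoter table (GRCm38.p6). Capitals mark matches to a searched motif, and bases in annotated exons were left out.

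Mief1, chr15:80233830-80234017, plus strand: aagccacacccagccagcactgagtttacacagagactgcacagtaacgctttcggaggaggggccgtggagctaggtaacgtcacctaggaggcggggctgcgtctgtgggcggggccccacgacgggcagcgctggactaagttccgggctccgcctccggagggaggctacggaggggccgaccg
Yme1l1, chr2:23156255-23156368, plus strand: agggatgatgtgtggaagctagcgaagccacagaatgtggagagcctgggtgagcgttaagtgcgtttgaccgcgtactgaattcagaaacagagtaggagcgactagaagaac
Mief2, chr11:60728148-60728397, plus strand: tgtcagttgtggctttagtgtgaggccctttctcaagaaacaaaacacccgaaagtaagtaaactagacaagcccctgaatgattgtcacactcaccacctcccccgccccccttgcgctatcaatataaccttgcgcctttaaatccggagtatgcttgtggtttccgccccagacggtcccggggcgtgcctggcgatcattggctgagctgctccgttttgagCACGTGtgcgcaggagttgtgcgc
Opa1, chr16:29579084-29579333, plus strand: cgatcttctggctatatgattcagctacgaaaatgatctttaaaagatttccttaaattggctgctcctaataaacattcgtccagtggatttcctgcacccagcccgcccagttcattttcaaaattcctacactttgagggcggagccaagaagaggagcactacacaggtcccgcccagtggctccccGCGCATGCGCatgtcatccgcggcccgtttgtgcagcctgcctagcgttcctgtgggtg

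The 5 motifs, none of which contains another, were searched on both strands in all 15 RefSeq windows of the 10 genes, each of 250 bases before and 50 after a start. The NRF1 motif GCGCANGCG was found in the windows of Opa1, as 2 overlapping matches on opposite strands, and of Oma1, and in 6.25% of all 32851 windows. The E-box CACGTG was found in Mief2 alone among the 10 and in 7.15% of all windows. The estrogen-related receptor motif TNAAGGTCA, the CREB motif TGACGTCA and the FOXO motif TGTTTAC matched no window of the 10, and matched 1.28%, 1.79% and 3.65% of all windows. Neither Mief1 nor Yme1l1 held a match to these motifs in the windows searched, and whether they share regulation was not tested.

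The genes spanned a wide range of levels per length. Per kilobase of annotated exon, Mfn2 stood highest at 75.2 CPM averaged over the 9 libraries, and Fis1 (24.5), Mfn1 (21.7) and Mief2 (21.5) followed. In SED, Fis1 at 26.4 ± 1.36, Mief2 at 23.9 ± 2.04 and Mfn1 at 22.6 ± 1.72 CPM per kilobase (SD, n = 3) did not differ from their neighbours beyond their spread. Next came Opa1 (14.9), Dnm1l (14.0), Yme1l1 (9.70), Oma1 (6.77) and Mff (6.11), with Oma1 and Mff overlapping within 1 SD in SED. Mief1 was lowest at 2.65 CPM per kilobase. With the mean transcript length as the divisor, Mfn2 stayed first, Mief2 at rank 4 and Mief1 last, while Mff moved from rank 9 to 6 and Opa1 from 5 to 7.

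**Figure D1:**
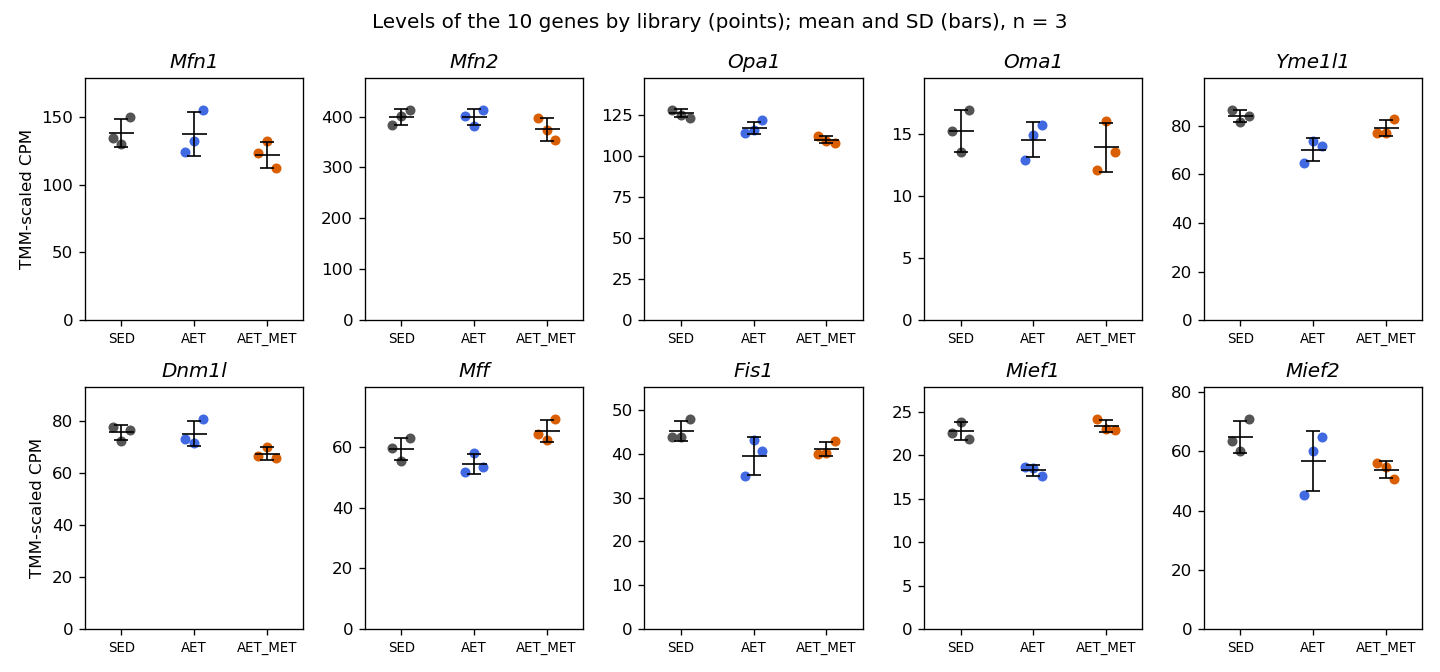
TMM-scaled CPM of each of the 10 genes (y axes, starting at 0) in the 3 libraries of each group (x axis, points), with mean and SD bars (n = 3). The 3 AET libraries of Mief1, at 17.6 to 18.7 CPM, lie below all libraries of the other groups, which start at 21.9 CPM, while Mfn1, Mfn2 and Oma1 overlap between all groups.

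Among the fission receptors, Mief1 gave the clearest difference. It is a protein-coding gene on the plus strand of chromosome 15 (80234018 to 80253371, GRCm38), and MiD51 recruits DRP1 and regulates its assembly. Its level was 22.6, 23.9 and 21.9 CPM in the SED libraries, 18.7, 18.5 and 17.6 in AET, and 24.2, 23.1 and 22.9 in AET_MET. The AET libraries were thus all lower than those of both other groups, which overlapped each other. The mean of Mief1 was 22.8 ± 1.03 CPM for SED and 18.3 ± 0.620 for AET (SD, n = 3), and it fell by 0.32 ± 0.08 on the log2 scale (SE, edgeR adjusted p = 0.0183). It was higher in AET_MET than in AET, at 23.4 ± 0.732 CPM, by 0.36 ± 0.08 on the log2 scale (edgeR adjusted p = 0.0294). Against SED, AET_MET differed by 0.04 ± 0.08, with an unadjusted 95% interval of -0.13 to 0.20. The call in AET against SED was lost without SED replicate 2 (adjusted p = 0.0708), without AET replicate 3 (0.0737) and with library sizes as the only scaling (0.0533). The call in AET_MET against AET was lost without any 1 of the 6 libraries of those groups, at adjusted p between 0.0549 and 0.115, with log2 changes of 0.33 to 0.37.

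Mief1 reads can be shared with AC140267.1, a gene annotated inside it on the same strand, with which it shares 213 exonic bases. AC140267.1 held at most 5.30 expected counts in a library, against 392 to 543 for Mief1, and adding its reads to Mief1 changed no call (log2 change -0.31 in AET against SED and 0.35 in AET_MET against AET). Markers of other cell types also differed between these groups. The 8 Schwann cell markers were all measured, and summed to 40.7 to 47.6 CPM in SED, 80.0 to 142 in AET and 31.3 to 70.4 in AET_MET. Of these, 3 rose in AET against SED (Sox10, S100b and Gldn), where 5.82% of all genes rose. Gldn was lower in AET_MET than in AET, where 1.77% of all genes were. The 6 smooth muscle and pericyte markers summed to 496 to 576 CPM for SED, 576 to 677 for AET and 487 to 580.3 for AET_MET, and Acta2 rose in AET against SED (log2 change 1.10 ± 0.27, edgeR adjusted p = 0.0416). The 6 fibroblast markers summed to 720.2 to 921 CPM for SED, 564 to 639 for AET and 539 to 608 for AET_MET, with Dcn lower in AET and Col1a1 lower in AET_MET against SED. The 6 tenocyte markers summed to 311 to 508, 134 to 305 and 90.1 to 212 CPM in the same order, so SED did not overlap either trained group for these 2 lists. Of 6 endothelial markers Cldn5 was lower in both trained groups than in SED, and no macrophage or adipocyte marker was called. None of the markers was at 0 in a library except Lep, of the adipocyte list. Their part in the Mief1 and Yme1l1 results was not tested.

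Mief2, on the plus strand of chromosome 11 (60728398 to 60732951), is the paralog of Mief1 and gave no call. Its level was 63.6, 60.0 and 70.9 CPM in SED, 45.3, 60.1 and 64.8 in AET, and 56.2, 54.7 and 50.5 in AET_MET. AET replicate 1 was the lowest of the 9 libraries, and the AET_MET libraries all lay below those of SED. The change was -0.19 ± 0.12 in AET against SED (edgeR adjusted p = 0.304) and -0.27 ± 0.12 in AET_MET against SED (edgeR adjusted p = 0.217), neither of which passed. The first interval, -0.45 to 0.06, holds the Mief1 change of -0.32, and the difference between the paralogs was not tested.

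Mff encodes the main DRP1 receptor in many cells and lies on the plus strand of chromosome 1 (82724890 to 82752394). It stood at 59.5, 55.5 and 62.9 CPM in SED, 51.7, 57.9 and 53.5 in AET, and 64.4, 62.3 and 69.2 in AET_MET. Every AET_MET library was above every AET library, and SED overlapped both. AET_MET exceeded AET by 0.26 ± 0.08 on the log2 scale, with an unadjusted p of 0.00448, but the edgeR adjusted p of 0.0723 missed the threshold. DESeq2 called it (adjusted p = 0.0475), as did library sizes alone (log2 change 0.35, edgeR adjusted p = 0.0350), a scaling that moved the median of all genes by 0.09 in that comparison. Against SED, Mff differed by -0.12 ± 0.08 in AET and by 0.14 ± 0.08 in AET_MET, and neither passed (edgeR adjusted p = 0.309 and 0.328). Mff shares 195 exonic bases with C430014B12Rik on the opposite strand. Without a stated strand setting, reads within those bases cannot be told apart. Of the 50-base stretches of Mff, 1.45% recur in that gene.

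Fis1, a small outer membrane protein gene on chromosome 5 (136953275 to 136966234, plus strand), was measured at 43.9, 43.9 and 47.9 CPM in SED, 34.8, 43.2 and 40.5 in AET, and 40.0, 40.1 and 42.9 in AET_MET. All libraries of both trained groups lay below those of SED. The log2 changes of -0.19 ± 0.09 in AET and -0.14 ± 0.09 in AET_MET did not pass (edgeR adjusted p = 0.159 and 0.385).

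Dnm1l, the gene of the fission GTPase itself, lies on the minus strand of chromosome 16 (16312230 to 16358959). Its level was 77.8, 72.3 and 76.6 CPM in SED, 73.0, 71.6 and 80.7 in AET, and 66.6, 70.1 and 65.6 in AET_MET. SED and AET overlapped, and the AET_MET libraries all lay below both. The changes were -0.01 ± 0.07 in AET against SED, -0.16 ± 0.07 in AET_MET against SED and, between the trained groups, -0.15 ± 0.07, with edgeR adjusted p of 0.949, 0.223 and 0.239. None passed, and the intervals allowed no change of more than 0.32 on the log2 scale in either direction. Of its 50-base stretches 4.90% recur in other annotated transcripts, among them Gm49521, which overlaps it on the opposite strand.

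On the fusion side, no gene passed in any comparison. Mfn2, on the minus strand of chromosome 4 (147873599 to 147904704), was the most abundant member, at 383, 401 and 413 CPM in SED, 401, 382 and 412 in AET, and 398, 374 and 353 in AET_MET. The SED and AET libraries covered the same range, with means of 399 ± 15.2 CPM in each (SD, n = 3). The interval of the AET change ran from -0.17 to 0.17, so a rise of more than 0.17 on the log2 scale lay outside it. AET_MET differed from SED by -0.09 ± 0.08 and from AET by -0.09 ± 0.08 (edgeR adjusted p = 0.572 and 0.555).

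Mfn1, on the plus strand of chromosome 3 (32529465 to 32579239), stood at 134, 130.0 and 149.9 CPM in SED, 124, 132 and 155 in AET, and 123, 132 and 112 in AET_MET. The groups overlapped in every comparison. Its changes were -0.01 ± 0.10 in AET and -0.17 ± 0.10 in AET_MET against SED (edgeR adjusted p = 0.951 and 0.341). The 2 mitofusin genes kept a similar proportion, with Mfn2 above Mfn1 by 1.53 ± 0.08 log2 units for SED, 1.55 ± 0.14 for AET and 1.62 ± 0.10 for AET_MET (SD, n = 3).

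Opa1, on the plus strand of chromosome 16 (29579334 to 29654884), had replicates close to each other. It was measured at 128, 125 and 123 CPM in SED, 114, 116 and 122 in AET, and 112, 109 and 108 in AET_MET. In these TMM-scaled values the 3 groups did not overlap: SED was highest, AET intermediate and AET_MET lowest. The order of the trained groups depended on the scaling. With library sizes alone AET_MET differed from AET by -0.00 (edgeR adjusted p = 0.984). AET_MET differed from SED by -0.19 ± 0.07, or -12.4%, with an unadjusted p of 0.0131 and an edgeR adjusted p of 0.124. AET differed from SED by -0.10 ± 0.07 and AET_MET from AET by -0.09 ± 0.07 (edgeR adjusted p = 0.355 and 0.446). None of the 3 passed, and under every alternative tried the estimate in AET_MET against SED stayed negative (-0.21 to -0.09, adjusted p 0.0509 to 0.537). Of the 12 genes set up as markers of mitochondrial content, such as Cs and Sdha, all measured, the summed level ran from 4471 to 5115 CPM for SED, 4201 to 5137 for AET and 4016 to 4311 for AET_MET. That level, TMM-scaled, was lower in every AET_MET library than in every SED library, as for Opa1, but also for Dnm1l, Fis1 and Mief2. The slow fiber, fibroblast and tenocyte sums were lower in the same way. The TMM scaling factors were 1.052, 1.061 and 1.023 in AET_MET, above those of SED at 0.968, 1.013 and 0.944. The part of any of these sums, or of the scaling, in the Opa1 values was not tested.

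Of the 2 proteases of OPA1, Yme1l1 gave a call and Oma1 did not, and the difference between them was not tested. Yme1l1, on the plus strand of chromosome 2 (23156369 to 23199260), encodes a protease of the intermembrane space side that cuts OPA1 constitutively. Its level was 86.5, 81.4 and 83.9 CPM in SED, 64.8, 73.9 and 71.6 in AET, and 77.0, 77.2 and 82.7 in AET_MET. AET was the lowest group with no overlap to either other group, while SED and AET_MET overlapped. Group means were 83.9 ± 2.56 CPM for SED and 70.1 ± 4.76 for AET (SD, n = 3), and Yme1l1 fell by 0.26 ± 0.07 on the log2 scale (edgeR adjusted p = 0.0359). AET_MET differed from SED by -0.09 ± 0.07 (edgeR adjusted p = 0.547) and from AET by 0.17 ± 0.07 (edgeR adjusted p = 0.196). The call was lost in 10 of 16 alternatives, among them library sizes alone, the fit of the 2 groups alone and the omission of any 1 of SED replicates 1, 2 and 3, AET replicates 1 and 3, or AET_MET replicates 1 and 2. Over the 16 alternatives the log2 change stayed between -0.30 and -0.21, with adjusted p from 0.0190 to 0.110.

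Oma1, the stress-activated protease gene, lies on the plus strand of chromosome 4 (103313812 to 103371868) and was the least abundant in CPM. It was listed at 15.2, 13.5 and 16.9 CPM in SED, 12.9, 14.9 and 15.7 in AET, and 12.1, 16.0 and 13.5 in AET_MET, with all groups overlapping. It held 197 to 386 expected counts a library, its interval for AET against SED ran from -0.33 to 0.20, and no comparison passed (edgeR adjusted p = 0.761, 0.613 and 0.816). That interval also holds the Yme1l1 change of -0.26.

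**Figure D2:**
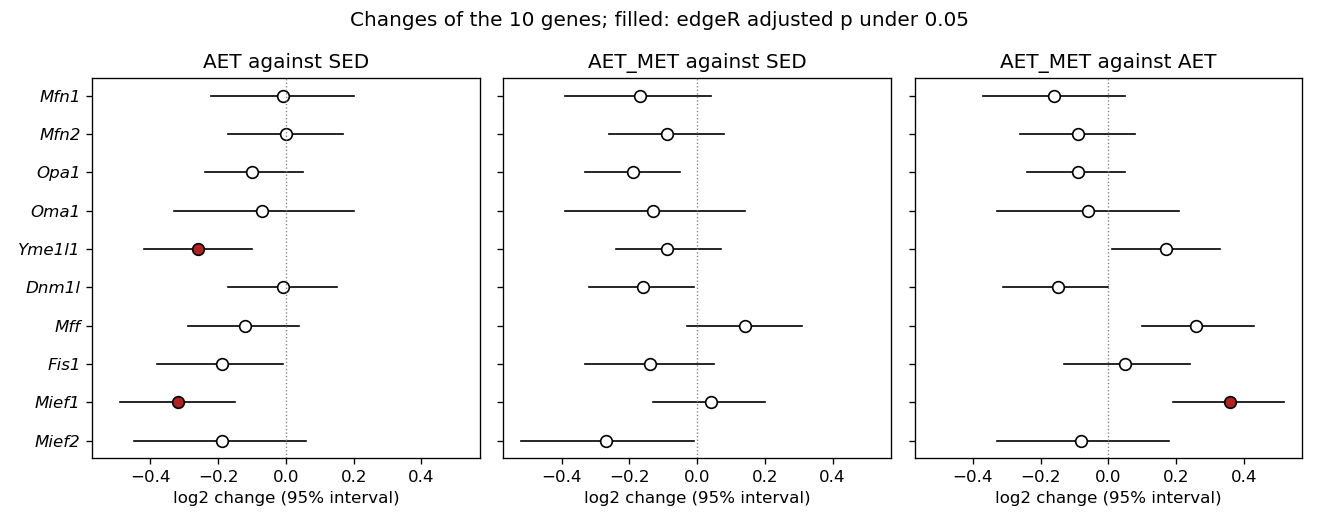
Log2 change (x axis, points) with its unadjusted 95% interval (lines) for each gene (y axis) in the 3 comparisons. Mief1 and Yme1l1 are filled in AET against SED at -0.32 and -0.26, Mief1 is filled in AET_MET against AET at 0.36, and no gene is filled in AET_MET against SED.

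The calls among the 10 were few in number and are read here against those of all genes. In AET against SED 0 rose and 2 fell of the 10, where 12.3% of all genes tested were called, 5.82% higher and 6.45% lower. At an unadjusted p under 0.05 the members were 3 (Yme1l1, Fis1 and Mief1), against 28.5% of all genes. In AET_MET against SED 0 of the 10 were called, where 4.59% of all genes were, 2.17% higher and 2.42% lower. At an unadjusted p under 0.05 there were 3 of the 10 in that comparison (Opa1, Dnm1l and Mief2), against 20.6% of all genes, and DESeq2 also called 0. In AET_MET against AET 1 of the 10 was called, where 3.43% of all genes were, 1.66% higher and 1.77% lower, and 3 had an unadjusted p under 0.05 (Yme1l1, Mff and Mief1), against 21.4% of all genes. The median absolute log2 change of the 10 was 0.11, 0.14 and 0.12 in the 3 comparisons in that order, below the 0.21, 0.17 and 0.18 of all genes. All genes were not matched to the 10 by level, so this does not show smaller changes than in genes of like level. With 10 members, 1 gene more or less moves the share by 10 percentage points, and nothing particular to the 10 is read from these counts.

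The balance of signs depended on the scaling. All 10 estimates were below 0 in AET against SED, where 48.6% of all genes were, but those of Mfn1, Mfn2 and Dnm1l lay within 0.01 of 0 and came to 0.00, 0.01 and 0.00 with library sizes alone. In AET_MET against SED 8 of 10 were lower (49.5% of all genes), the exceptions being Mff and Mief1, and with library sizes alone Mfn2 and Yme1l1 also turned to 0.01. In AET_MET against AET 6 of 10 were lower, against 49.9% of all genes. With library sizes alone Mfn2, Oma1 and Mief2 came to 0.00, 0.03 and 0.01, which left 3 of 10 lower. The shares of all genes given here are from the TMM fit. With library sizes alone the medians of all genes moved up too, to 0.02, 0.10 and 0.09 in the 3 comparisons. The turned signs are thus not particular to the members, and the share of all genes below 0 is not given for that scaling. The members' median log2 change was -0.11 in AET against SED, -0.13 in AET_MET against SED and, for AET_MET against AET, -0.07, with medians of all genes at 0.01, 0.00 and 0.00. The first pair of comparisons shares the SED libraries, so these values are not independent. Libraries did not overlap, in the lower direction, for 4 of 10 in AET against SED (Opa1, Yme1l1, Fis1 and Mief1) and 4 of 10 in AET_MET against SED (Opa1, Dnm1l, Fis1 and Mief2), against 16.3% and 13.4% of all genes, and none did so in the higher direction (16.4% and 13.4%). In AET_MET against AET 3 were higher without overlap (Yme1l1, Mff and Mief1) and 2 lower (Opa1 and Dnm1l), against 14.7% and 13.2%. In either direction 32.7%, 26.8% and 27.9% of all genes did not overlap in the 3 comparisons in that order. These separations are of TMM-scaled CPM and were not counted with library sizes alone. That scaling took the AET_MET against SED estimates of Opa1, Dnm1l, Fis1 and Mief2 from -0.19, -0.16, -0.14 and -0.27 to -0.09, -0.06, -0.04 and -0.17. Nothing particular to the 10 is read from the separations.

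Differences between members within a library do not depend on the scaling, and some set AET_MET apart. Others did not: AET_MET overlapped both other groups for Mfn2 minus Mfn1 and for Yme1l1 minus Oma1. The differences below were chosen with values known and are given without a test. The share of all gene pairs that set AET_MET apart is not given, so nothing particular to these pairs is read. The differences of Mff from Fis1 and from Dnm1l both hold Mff, so they are not independent. Mff stood above Fis1 by 0.69, 0.63 and 0.69 log2 CPM in AET_MET, against 0.44, 0.34 and 0.39 in SED and 0.57, 0.42 and 0.40 in AET, so the AET_MET libraries were the 3 highest. Mff against Dnm1l gave -0.05, -0.17 and 0.08 in AET_MET, -0.39, -0.38 and -0.29 in SED, and -0.50, -0.31 and -0.59 in AET. This difference, in CPM not divided by length, was thus highest in the AET_MET libraries, with no overlap to the other groups, and it does not rank the levels of the genes. Mief1 minus Mief2 averaged -1.20 ± 0.05 in AET_MET, -1.50 ± 0.18 in SED and -1.61 ± 0.31 in AET (SD, n = 3). AET replicate 1, at -1.27, lay above every SED library, and the other AET libraries were at -1.69 and -1.88.

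The mean of the 3 fusion genes minus the mean of the 5 fission genes was 1.92, 1.96 and 1.94 log2 CPM in SED. It was 2.13, 1.98 and 2.11 in AET, and 1.90, 1.91 and 1.79 in AET_MET. AET lay above SED and AET_MET below it in every library, by group means of 2.07 and 1.87 against 1.94. The nearest libraries were close, at 1.98 in AET beside 1.96 in SED, and 1.91 in AET_MET beside 1.92 in SED. Mief1 is 1 of the 5 fission genes averaged, and its part was not tested. The order is of transcripts only, and says nothing of the proteins or of mitochondrial shape.

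**Figure D3:**
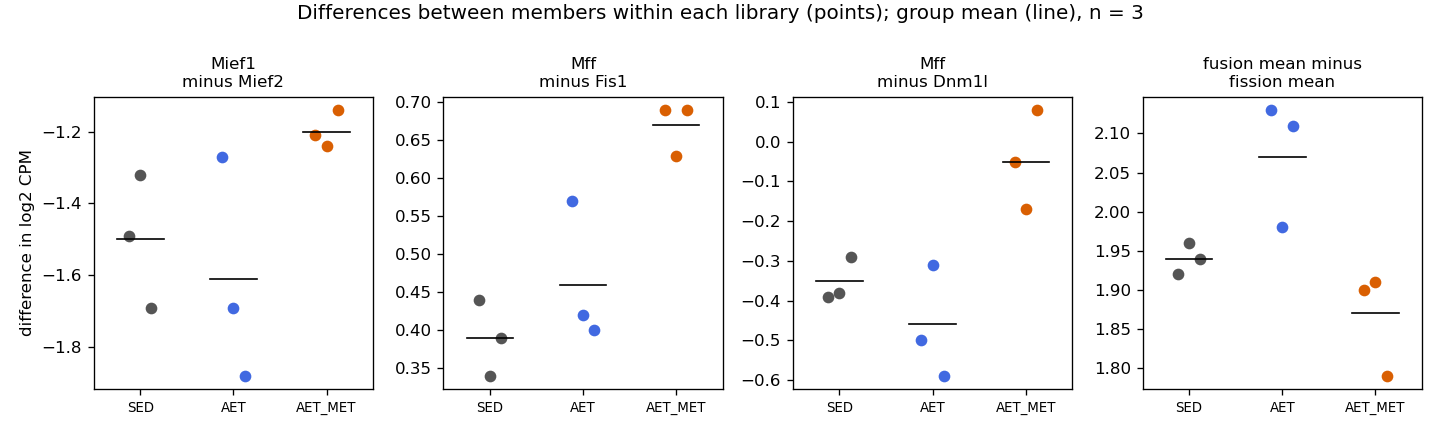
Difference in log2 CPM between members within each library (y axes, which do not start at 0) by group (x axis, points), with the group mean as a line (n = 3). For Mff minus Fis1 and Mff minus Dnm1l the AET_MET libraries lie above all others, and for the fusion mean minus the fission mean they lie below all others.

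Across the 9 libraries the members did not move as one block. The pair most alike was Mfn1 and Dnm1l, with a Pearson r of 0.865 in log2 CPM, followed by Yme1l1 and Fis1 at 0.843, and the least alike was Dnm1l and Mff at -0.619. These are descriptions over 9 libraries that share their groups and depth. Among 12557 other protein-coding genes, the 3 most like Mfn1 were Fam210a (0.968), Trim72 (0.960) and Ndufb3 (0.958), and those most like Mfn2 were Tmem201 (0.949), Slc25a13 (0.914) and Taf4 (0.909). Numb (0.985), Krt222 (0.972) and Vwa8 (0.960) were most like Opa1, and Frzb (0.980), Dbi (0.952) and Mrpl55 (0.947) most like Dnm1l.

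Of 18 tested accessory genes of mitochondrial dynamics (20 listed, with Mtfr2 and Pld6 too low), 2 fell in AET against SED with 0 rising. None was called in the other comparisons. Of all genes tested 12.3%, 4.59% and 3.43% were called in the 3 comparisons, and nothing particular to this list or those below is read from such counts. The list's median was -0.04, -0.04 and -0.02 in the 3 comparisons, with all genes at 0.01, 0.00 and 0.00. Pgam5, encoding a mitochondrial phosphatase that acts on DRP1, fell from 17.8 ± 0.843 to 13.0 ± 1.74 CPM in AET (log2 change -0.45 ± 0.10, edgeR adjusted p = 0.0148), a call lost only without SED replicate 2 among the alternatives (0.0566). In AET_MET it stood at 16.4 ± 0.499 CPM, 0.33 ± 0.10 above AET, which did not pass (edgeR adjusted p = 0.0916). Usp30, encoding a deubiquitinase of the outer membrane, fell by 0.43 ± 0.13 in AET (edgeR adjusted p = 0.0469), a call lost in 10 of 16 alternatives, with any 1 SED or AET library left out among them (adjusted p up to 0.136). Its difference in AET_MET against SED, -0.23 ± 0.13, did not pass (edgeR adjusted p = 0.337).

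Genes of inner membrane shape and proteolysis held 1 rise and 1 fall among 14 in AET against SED, where 12.3% of all genes were called. None was called in AET_MET against SED (4.59% of all genes), and 2 fell in AET_MET against AET (1.77% of all genes fell). Their medians were -0.04, -0.21 and -0.10. Minos1, encoding a core subunit of the MICOS complex at cristae junctions, rose from 30.5 ± 4.90 to 44.3 ± 5.17 CPM in AET (log2 change 0.54 ± 0.12, edgeR adjusted p = 0.0116). It was lower in AET_MET at 25.9 ± 1.79 CPM, by -0.77 ± 0.12 against AET (edgeR adjusted p = 0.0120). Omitting SED replicate 2 or AET replicate 3 ended its first call (adjusted p up to 0.0560), and its second was lost without AET replicate 3 or AET_MET replicate 3 (up to 0.0744). Apoo, another MICOS subunit gene, fell by 0.33 ± 0.10 in AET (edgeR adjusted p = 0.0431), a call lost in 12 of 16 alternatives, with every single library left out except SED replicate 2 among them (adjusted p up to 0.155). Afg3l2, encoding a matrix-side protease subunit, was lower in AET_MET than in AET by -0.39 ± 0.10 (edgeR adjusted p = 0.0468), a call lost in 10 of 16, with any 1 AET_MET library, AET replicate 1 or 3, or SED replicate 2 or 3 left out among them (up to 0.173). Immt, encoding the MICOS organizer mitofilin, had the smallest p in AET_MET against SED (-0.26 ± 0.07, edgeR adjusted p = 0.0651) and passed with DESeq2 (adjusted p = 0.00658) and with the stricter filter (edgeR adjusted p = 0.0460).

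None of 5 mitochondrial transport genes was called in any comparison, with medians of 0.12, -0.01 and -0.17. Trak1, an adaptor of mitochondria to motors, differed by -0.32 ± 0.09 in AET_MET against AET (edgeR adjusted p = 0.0695), and passed with DESeq2 (adjusted p = 0.0317). Its difference in AET against SED was 0.21 ± 0.09 (edgeR adjusted p = 0.150). Rhot2, encoding a mitochondrial GTPase that binds those adaptors, had the smallest p in AET_MET against SED at -0.13 ± 0.08 (edgeR adjusted p = 0.396). Of 12 mitochondrial content genes none was called against SED and 1 fell in AET_MET against AET (1.77% of all genes fell), with medians of -0.07, -0.19 and -0.07. That gene was Hspd1, the matrix chaperonin, which averaged 113 ± 3.73 CPM beside 148 ± 16.3 in AET, a difference of -0.39 ± 0.09 on the log2 scale (edgeR adjusted p = 0.0319), a call lost without AET replicate 3, without any 1 AET_MET library, with library sizes alone and with the replicate block (adjusted p up to 0.129). In AET_MET against SED the Hspd1 difference of -0.24 ± 0.09 did not pass (edgeR adjusted p = 0.145). Vdac3, an outer membrane channel gene, had the smallest p of that list in AET against SED at -0.24 ± 0.08 (edgeR adjusted p = 0.0724) and passed with DESeq2 (adjusted p = 0.0285).

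Among 5 regulators of mitochondrial biogenesis, 2 rose in AET against SED and 1 in AET_MET against SED, where 5.82% and 2.17% of all genes rose. None was called in AET_MET against AET. Ppargc1b rose by 0.96 ± 0.16 in AET (edgeR adjusted p = 0.00319) and Ppargc1a, a coactivator known to drive Mfn2 transcription in muscle, by 0.58 ± 0.13 (edgeR adjusted p = 0.0126). Leaving out SED replicate 2 or AET replicate 3 ended the Ppargc1a call (adjusted p up to 0.0561). In the same libraries the Mfn2 change was -0.00 ± 0.08, and a link between Ppargc1a and Mfn2 was not tested. In AET_MET, Ppargc1b rose by 0.67 ± 0.17 against SED (edgeR adjusted p = 0.0397), a call lost with the replicate block and without any 1 SED library, AET replicate 2, or AET_MET replicate 1 or 3 (adjusted p up to 0.148). Ppargc1a differed there by 0.34 ± 0.13 and from AET by -0.24 ± 0.13 (edgeR adjusted p = 0.149 and 0.295).

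**Figure D4:**
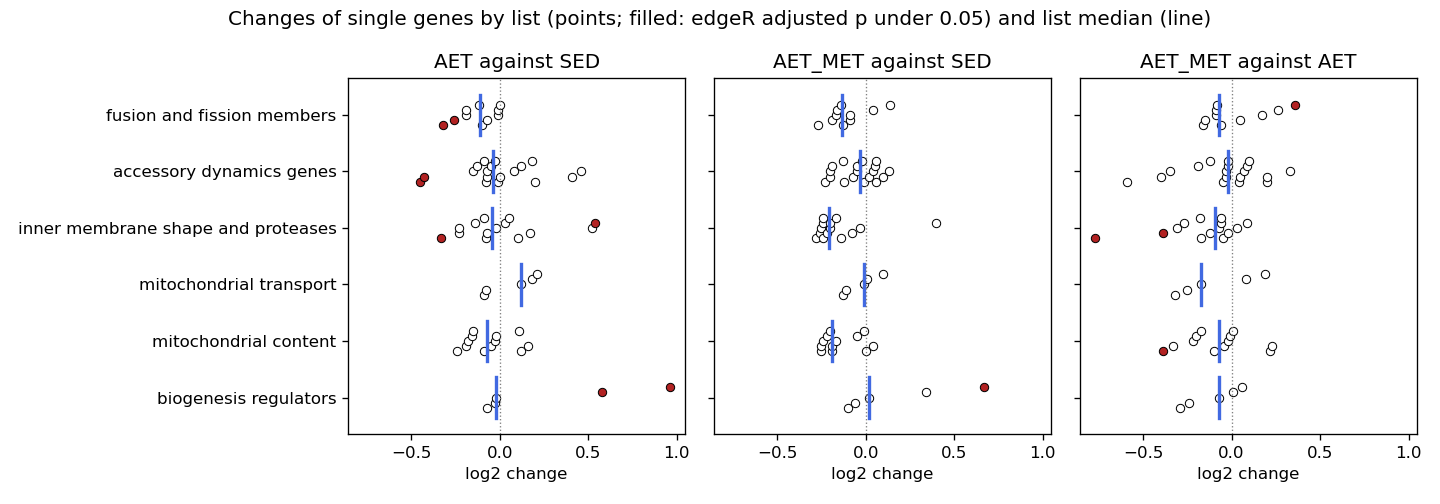
Log2 change of each gene (x axis, points) by list (y axis) in the 3 comparisons, with filled points at an edgeR adjusted p under 0.05 and the list median as a line. The fusion and fission genes lie between -0.32 and 0.36 in all comparisons, while Ppargc1b reaches 0.96 in AET against SED and Minos1 -0.77 in AET_MET against AET.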

How the data were processed

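The deposited table holds RSEM expected counts (estimated read numbers) per gene in 9 gastrocnemius libraries. STAR 2.5.3a, RSEM 1.3.0, edgeR 3.34.0 and GRCm38 are named without roles, per the submitters' processing notes. The sources used here do not give the annotation, filters or strand setting. The expected counts were rounded. Symbols, positions and exon lengths came from GENCODE M21 (GRCm38), which named 52083 of 55416 identifiers. All 9 libraries were fitted with edgeR 4.0.16 in R 4.3.3 (robust quasi-likelihood, TMM, filterByExpr, 6 residual degrees of freedom), and Benjamini-Hochberg adjustment ran over 13944 genes. The script was tested on simulated data. SE is the log2 change over the root of F. Log2 CPM used a prior count of 2. Within groups, chi-square per degree of freedom between libraries was 15.7 or more, so none was merged. The members, lists, motifs and naming rule (all members, then up to 4 called genes per list or the smallest p) were chosen with earlier results of these data known. Alternatives were other scalings and filters, DESeq2 1.42.0, a replicate block, 2-group fits and leaving out each library. The addition of AC140267.1 reads was chosen after seeing the data.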

Additional observations from a re-analysis of the deposited data

Results flagged for a closer look

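Mief1 was the 1 member called as different between the trained groups, with changes against SED of -0.32 ± 0.08 in AET and 0.04 ± 0.08 in AET_MET. The difference was 0.36 ± 0.08 on the log2 scale (edgeR adjusted p = 0.0294). Since the SED values cancel in it, this is the AET_MET against AET result given above, not a further one. All 3 AET libraries lay below the 3 AET_MET libraries. The call was lost without any 1 of these 6 libraries (adjusted p 0.0549 to 0.115). Mff, at 0.26 ± 0.08 in AET_MET against AET, missed the threshold (edgeR adjusted p = 0.0723), while DESeq2 called it (adjusted p = 0.0475).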

How the results depend on the processing

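Members called in AET against SED numbered 2, but 0 with library sizes alone, 1 with a replicate block, 1 in a fit of the 2 groups alone, and 0 to 2 with 1 library left out. In AET_MET against SED 0 were called under every alternative. In AET_MET against AET the 1 call became 2 with library sizes alone and 2 with DESeq2 (Mff added), and 0 to 1 with 1 library left out. Over all genes, leaving out 1 library gave 934 to 1509 calls in AET against SED (1712 with all), 141 to 655 in AET_MET against SED (640) and 23 to 461 in AET_MET against AET (478). The last count was 767 with library sizes alone, 731 with no filter and 876 with DESeq2. Library sizes alone moved the median of all genes by 0.10 and 0.09 in the AET_MET comparisons with SED and AET, and made 79.5% and 79.7% of calls higher ones, against 303 of 640 and 231 of 478 with TMM. Signs turned for small estimates. In AET against SED, Mfn1, Mfn2 and Dnm1l came to 0.00, 0.01 and 0.00 with library sizes alone and to 0.02, 0.03 and 0.02 with the stricter filter (5 CPM in 3 libraries). With 1 library left out there, Mfn1 ran from -0.11 to 0.05, Mfn2 from -0.03 to 0.03, Oma1 from -0.15 to 0.01 and Dnm1l from -0.07 to 0.02. With library sizes alone, Mfn2 and Yme1l1 came to 0.01 and 0.01 in AET_MET against SED, and Mfn2, Oma1 and Mief2 to 0.00, 0.03 and 0.01 in AET_MET against AET. With 1 library left out in the latter, Oma1 ran from -0.19 to 0.03, Fis1 from -0.03 to 0.12 and Mief2 from -0.22 to 0.03. The causes were not tested. Whether replicate numbers mark a pairing was not settled. Same-numbered deviations from the group means correlated at -0.051 to 0.184, and different-numbered ones at -0.172 to 0.140. In AET against SED the same-numbered values, 0.026 to 0.110, lay above all the others (-0.094 to 0.002). The replicate block left 1530, 535 and 358 genes called in the 3 comparisons. Under that block Yme1l1 (adjusted p = 0.0527), Usp30 (0.0735) and Apoo (0.0686) lost their calls in AET against SED, Ppargc1b (0.0601) in AET_MET against SED, and Afg3l2 (0.0721) and Hspd1 (0.0560) in AET_MET against AET. Mief1 kept both of its calls. Oma1 had the fewest expected counts of the members, 197 to 386 a library.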
